A study of Homo sapiens with 13 samples.

Results

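Knockdown of CTCF was compared with control siRNA in LNCaP-abl, a prostate cancer cell line that descends from LNCaP and grows without androgen. The comparison rests on 2 of the 13 libraries of the series, chosen by their labels as siCTCF and siControl2, and on 15780 of 22613 deposited gene entries, those with a mean of at least 0.5 FPKM over the 13 libraries that do not carry a small RNA symbol. FPKM is a measure of RNA level that corrects the number of sequenced fragments for transcript length and library size. All cells were kept in 10% serum stripped with charcoal, which is poor in androgens, were labelled as passage 53 to 60, and were harvested 72 h after transfection with Lipofectamine RNAiMAX. The target siRNA was a pool of several siRNAs against CTCF, and the sources used here do not say what the digit in the control's name stands for. The other 11 libraries were made in the same way with siRNA against the cohesin subunit RAD21, the repair proteins BRCA1 and BRCA2, the Polycomb proteins EED and EZH2, the transcription factors FOXA1 and FOXM1, the chromatin enzymes KDM1A and SMARCA4, and the long noncoding RNAs MALAT1 and PCAT1. They serve here as the background spread of the system. For 9 of these 11 the target RNA was below the control in its own library, but siMALAT1 held 21.7 FPKM of MALAT1, more than the 16.4 of the control, and PCAT1 was not analysed here. With siCTCF they are called the 12 siRNA libraries, the control not counted, with no claim that each target was lowered. Each siRNA had 1 library, so a difference has no replicate check, the knockdown and the library that carries it cannot be told apart, and no p-value is given. The labels give the purpose only as transcriptome profiling after knockdown, within a study of regulation in cis.

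CTCF is a zinc finger protein that binds a long, conserved DNA motif. It stalls the cohesin ring as cohesin extrudes chromatin, so that CTCF sites become the anchors of chromatin loops and the borders of topological domains. It is known for insulating the imprinted IGF2 and H19 genes, for promoter choice in the clustered protocadherins and for holding active and silent parts of the HOX clusters apart.

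Differences are given on the scale of log2(FPKM + 1), as siCTCF minus siControl2, and a gene is called higher or lower where the difference is at least 1, which is 2-fold. The log scale with its added 1 understates the fold of genes with low FPKM. In the siCTCF library, 201 genes (1.27% of those measured) were at least 2-fold higher and 449 (2.85%) at least 2-fold lower, 650 (4.12%) in all. The siCTCF library was the lowest of the 13 for 111 of the 449, and for 6.66% of all genes measured, and the highest for 128 of the 201, and for 8.62% of all. The limit lies in a continuous spread, since the nearest genes on either side of it had differences of 1.0 and 0.996 above and -1.004 and -0.999 below. The median difference of all genes was 0.04. Against the median of the other 11 siRNA libraries, 89 genes (0.564%) were at least 2-fold higher and 131 (0.83%) at least 2-fold lower. For 297 of the 449 lower genes the control was the highest of the 13 libraries. Of the 449, 110 were also 2-fold lower than the median of the other siRNA libraries, and of the 201 higher genes 72 were also 2-fold higher than it.

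The plot of the difference against the mean level shows where these genes lie.

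**Figure D1:**
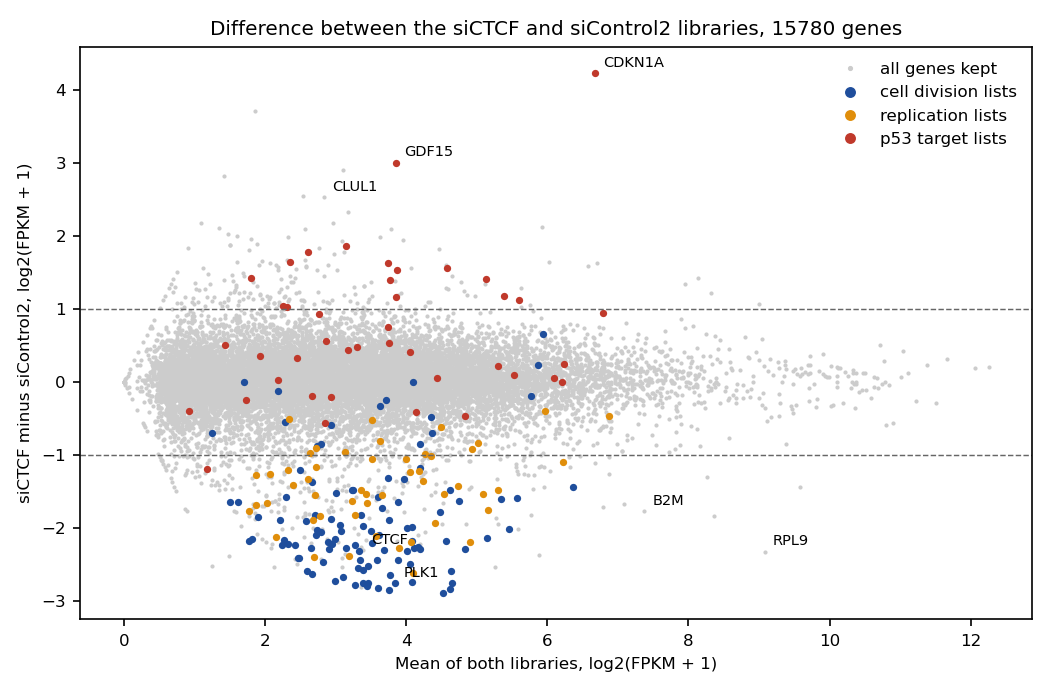
Each point is 1 of 15780 genes, with the mean of the siCTCF and siControl2 libraries in log2(FPKM + 1) on the x axis and their difference on the y axis; dashed lines mark 2-fold. Genes on the cell division lists (blue) and replication lists (orange) lie mostly below -1, p53 target genes (red) mostly above 0, and CDKN1A is at 4.23.

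Of the 40 gene lists examined, those of cell division and DNA replication held most of the lower members, and the largest difference of any gene measured was that of CDKN1A, which encodes the cyclin-dependent kinase inhibitor p21. The promoters of both kinds of gene are shown first, because their short motifs differ. Promoters of many genes of mitosis carry a cell cycle genes homology region (CHR), which binds MuvB complexes, next to CCAAT boxes, which bind NF-Y. Promoters of many replication genes carry E2F sites. The windows below are from RefSeq (GRCh38.p14), run 5′ to 3′ on the gene's strand from 100 bases before to 50 bases after the annotated start, and show in capitals every match on either strand to the CHR in its common form, TTTGAA, to its second form, which reads TTCGAA, to the CCAAT box, or to the E2F site, written as TTTNGCGC. Matches may overlap. The deposited values were made on hg19, so these positions belong to the reference alone. PLK1, at chr16:23678789-23678938 on the plus strand, CCNB2, at chr15:59105046-59105195 on the plus strand, and CDC20, at chr1:43358881-43359030 on the plus strand, stand for mitosis. MCM2, at chr3:127598311-127598460 on the plus strand, and GINS1, at chr20:25407573-25407722 on the plus strand, stand for replication. These 5 were picked because their windows hold the motifs, and many genes of their lists do not. In windows of this length, 56.5% of the matched cell division genes held either form of the CHR and 22.7% of the matched replication genes an E2F site. CDKN1A, at chr6:36678614-36678763 on the plus strand, stands for the increases.
PLK1: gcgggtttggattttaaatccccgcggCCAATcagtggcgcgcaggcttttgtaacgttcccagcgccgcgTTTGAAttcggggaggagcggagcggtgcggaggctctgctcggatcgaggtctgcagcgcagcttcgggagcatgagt
CCNB2: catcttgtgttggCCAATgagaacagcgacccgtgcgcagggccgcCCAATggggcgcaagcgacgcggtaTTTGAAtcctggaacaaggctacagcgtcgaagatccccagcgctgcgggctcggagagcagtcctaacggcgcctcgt
CDC20: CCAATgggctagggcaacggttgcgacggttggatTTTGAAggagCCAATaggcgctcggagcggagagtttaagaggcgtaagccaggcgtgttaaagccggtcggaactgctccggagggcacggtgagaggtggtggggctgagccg
MCM2: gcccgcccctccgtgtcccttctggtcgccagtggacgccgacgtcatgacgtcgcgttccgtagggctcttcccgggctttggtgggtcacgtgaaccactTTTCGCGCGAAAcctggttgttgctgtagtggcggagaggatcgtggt
GINS1: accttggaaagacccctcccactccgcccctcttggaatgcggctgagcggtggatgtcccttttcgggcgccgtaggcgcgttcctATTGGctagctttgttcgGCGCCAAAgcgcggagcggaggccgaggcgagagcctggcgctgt
CDKN1A: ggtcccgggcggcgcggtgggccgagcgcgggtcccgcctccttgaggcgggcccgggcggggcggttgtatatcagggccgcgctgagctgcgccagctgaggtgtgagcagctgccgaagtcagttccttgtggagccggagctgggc
In PLK1 and CCNB2 the CHR begins 29 bases before the start, with a CCAAT box upstream of it. In CDC20 a CHR begins 65 bases before the start, between CCAAT boxes at 100 and 55 bases before it. The 2 E2F matches of MCM2 overlap each other, and the CDKN1A window holds no match to any of these motifs.

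The siRNA target was low in its own library. CTCF was at 3.72 FPKM in siCTCF and 22.2 in siControl2, and the other 11 siRNA libraries ran from 15.7 to 26.9 with a median of 19.3. The siCTCF value lay far below all 12 other libraries, and the control was 5.96-fold higher (difference -2.30). The highest CTCF level, 26.9 FPKM, was in siRAD21, the knockdown of the cohesin subunit RAD21. Markers of the luminal prostate epithelium were present in both libraries, with the pioneer factor FOXA1 at 153.8 FPKM in siCTCF and 136.9 in the control, and the keratin KRT8 at 131.4 and 126.8. KLK3, which encodes prostate-specific antigen and needs androgen, lay between 0.0165 and 0.524 FPKM over the 13 libraries. Of the basal, leukocyte, endothelial and neuroendocrine markers looked up, 1 each had an entry (KRT14, PTPRC, PECAM1 and SYP). Of 7 fibroblast markers, 4 had one. The summed levels of these entries stayed at or below 5.93 FPKM for each cell type in every library. Some genes on the wider lists were higher over the 13 libraries. ENO2 of the neuroendocrine list ran from 23.2 to 54.6 FPKM, ITGA6 of the basal list from 8.25 to 19.3, and the mesenchymal COL5A2 from 5.53 to 51.9.

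The cohesin ring works together with CTCF. RAD21, the kleisin that closes the ring, was at 39.4 FPKM in siCTCF against 88.5 in the control (-1.15), and the 10 siRNA libraries that targeted neither CTCF nor RAD21 ran from 19.8 to 75.9 with a median of 57.4. The control thus held more RAD21 RNA than every siRNA library. SMC3 (37.7 to 21.0 FPKM, -0.82), SMC1A (23.0 to 13.5, -0.73) and STAG2 (41.2 to 29.2, -0.48), the other main parts of the ring, were lower by less than 2-fold and lay inside the range of the other siRNA libraries.

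STAG1, the alternative to STAG2 in the ring, went the other way. It was at 12.3 FPKM in siCTCF and 17.0 in siRAD21, against 5.70 in the control and 1.95 to 5.50 in the remaining 10 siRNA libraries. The siCTCF and siRAD21 values lay above the other 11 libraries, which they did not overlap. The difference from the control was 0.99 in siCTCF, just under the 2-fold limit, and 1.43 in siRAD21, and against the median of the other siRNA libraries siCTCF was higher by 1.35.

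Of 12 genes that load, release, protect or modify cohesin, 5 were at least 2-fold lower. These were CDCA5, which encodes sororin (19.4 to 2.55 FPKM, -2.52), the securin gene PTTG1 (90.8 to 15 FPKM, -2.52), the acetyltransferase ESCO2 of S phase (11.5 to 1.33, -2.42), the separase gene ESPL1 (5.45 to 0.962, -1.72) and SGOL1, which encodes shugoshin (6.45 to 1.92, -1.35). All 5 act in S phase or mitosis. Over all genes 2.85% were at least 2-fold lower. For each of the 5, all 12 siRNA libraries were below the control. Against the median of the other 11, siCTCF was at -0.97 for CDCA5, -1.20 for PTTG1, -0.93 for ESCO2, -0.64 for ESPL1 and -0.40 for SGOL1. The cohesin loader genes NIPBL (0.14) and MAU2 (-0.08), the releaser WAPAL (-0.10) and the acetyltransferase ESCO1 (-0.01), which act throughout interphase, stayed within 0.2 of the control. PDS5A was at -0.59, PDS5B at -0.42 and the SMC3 deacetylase gene HDAC8 at 0.41. Among 17 measured genes for CTCF and proteins reported to bind it or share its sites, CTCF alone was past 2-fold. CTCF is the siRNA target, and 4.12% of all genes were past 2-fold. Nothing apart from the background can therefore be read from the count for the others. The others ran from -0.29 for the zinc finger protein YY1 to 0.59 for the coregulator RNA gene SRA1, with ZNF143 at -0.10, MAZ at -0.15, PATZ1 at 0.46 and the nucleolar protein NPM1 at 639.5 FPKM in both libraries.

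**Figure D2:**
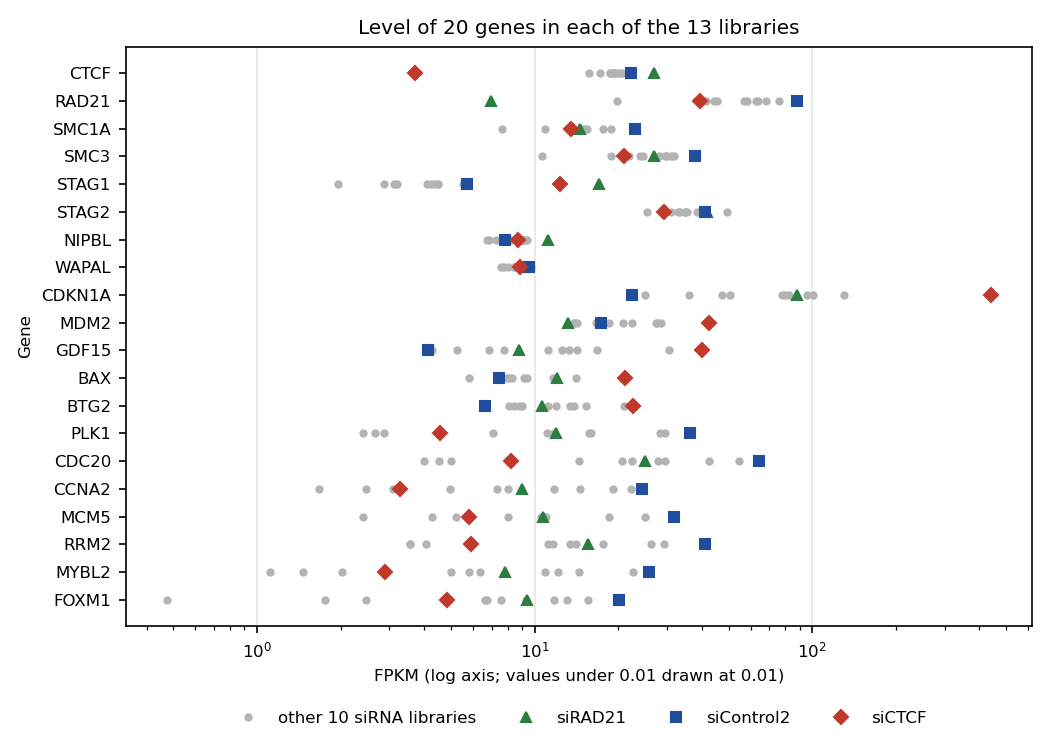
FPKM of 20 genes on a log axis, with 1 symbol per library: siCTCF (diamonds), siControl2 (squares), siRAD21 (triangles) and the other 10 siRNA libraries (grey circles). CTCF at 3.72 and CDKN1A at 440.0 FPKM stand apart in siCTCF, STAG1 is highest in siRAD21 and siCTCF, and the control is highest or nearly so for the genes of division and replication at the bottom.

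CDKN1A was at 440.0 FPKM in siCTCF and 22.5 in the control, a 19.6-fold difference (4.23). The other 11 siRNA libraries ran from 25.0 to 130.5 FPKM with a median of 79.7, so all 12 siRNA libraries were above the control and siCTCF was above all of them. Against the median of the other 11 its difference was 2.45. The other CDK inhibitors did not follow it. CDKN1B was at 0.18 and CDKN2B at 0.29, while CDKN2A was at -0.49 and CDKN2D at -0.38. CDKN2C (16.6 to 5.92 FPKM, -1.35) and CDKN3, a phosphatase of CDKs that is itself cell cycle regulated (31.9 to 7.32 FPKM, -1.98), were at least 2-fold lower. For CDKN3 all 12 siRNA libraries were below the control, and for CDKN2C 11 were, with siEZH2 at 5.90 FPKM. Against the median of the other 11, siCTCF was at -0.76 for CDKN2C and -0.75 for CDKN3.

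CDKN1A is a classical target of p53, the tumour suppressor that induces arrest, repair and death genes. Of 42 measured p53 targets on 3 lists, 16 were at least 2-fold higher and 1 lower, with a median of 0.52, against 1.27% higher and a median of 0.04 over all genes. In 21 of the 42 (50%) the siCTCF library was the highest of the 13, which was so for 8.62% of all genes measured. Against the median of the other 11 siRNA libraries the median of the 42 was 0.45, with 5 at least 2-fold higher and none lower.

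Among 10 arrest genes the median was 1.10, above the medians of the other 11 siRNA libraries, which reached 0.67. Beside CDKN1A, the antiproliferative gene BTG2 was at 22.6 FPKM against 6.6 (1.64), the stress kinase gene PLK3 at 10.3 against 2.27 (1.79), the AKT inhibitor gene PHLDA3 at 56.2 against 20.5 (1.41) and GADD45A at 20.7 against 8.65 (1.17). PLK2 made up the 6 at 1.02. E2F7, a repressor of the E2F family, was the exception at -1.19. BTG2 and GADD45A were above every other library in siCTCF by small margins, since siFOXM1 had 21.0 FPKM of BTG2 and siFOXA1 19.6 of GADD45A. PHLDA3 was higher in siSMARCA4, at 56.9 FPKM. For BTG2, PHLDA3 and GADD45A all 12 siRNA libraries were above the control. Against the median of the other 11, siCTCF was at 0.955 for BTG2, 0.94 for PHLDA3 and 0.55 for GADD45A, and at 1.58 for PLK3.

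Of 16 death genes, 5 were at least 2-fold higher and none lower. Their median was 0.30, with siBRCA2 next at 0.27, and 0.39 against the median of the other 11 siRNA libraries. BAX, which permeabilises mitochondria, was at 21.2 FPKM against 7.46 in the control (1.39), with the other 11 siRNA libraries between 5.82 and 14.1. BBC3, which encodes PUMA, was at 4.75 against 1.13 (1.43), the nuclease gene AEN at 40.2 against 13 (1.56), and the TRAIL receptor gene TNFRSF10B at 62.1 against 26.8 (1.18). Each of these 4 was highest in siCTCF. Against the median of the other 11 siRNA libraries, BAX was at 1.25, AEN at 0.95, BBC3 at 0.78 and TNFRSF10B at 0.72. For AEN and BBC3 all 12 siRNA libraries were above the control. TRIAP1 was the fifth, at 70.2 FPKM against 31.7 (1.12). FAS (-0.41), PERP (-0.46) and BID (-0.56) were below the control, and PMAIP1, which encodes NOXA, was at 0.36. In the BCL2 family as a whole, BAX and BBC3 were the members past 2-fold, while the survival gene BCL2 was at -0.92 and BCL2L1 at 0.68.

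Of 16 repair, redox and metabolic targets, 5 were at least 2-fold higher. Their median of 0.53 was below that of siFOXA1, 0.57, and was 0.205 against the median of the other 11 siRNA libraries. GDF15, a stress-induced cytokine, was at 40.1 FPKM against 4.13 (3.0), and the other siRNA libraries ran from 4.27 to 30.6, the last in siFOXM1. The ferredoxin reductase gene FDXR was at 24.0 against 7.60 (1.54), SPATA18 at 8.07 against 1.90 (1.64), and SESN2, an mTORC1 regulator that ATF4 also induces, at 15.9 against 3.63 (1.87). C12orf5, which encodes the glycolytic regulator TIGAR, was at 1.05. For GDF15, FDXR and SESN2 all 12 siRNA libraries were above the control. Against the median of the other 11, siCTCF was at 1.75 for GDF15, 1.44 for SPATA18, 0.98 for FDXR and 0.825 for SESN2. SESN1 (0.003), RRM2B (0.05) and XPC (0.42) did not pass. RPS27L, a p53-induced paralogue of a ribosomal protein gene that was on none of these lists, was at 164.1 FPKM against 53.7 (1.59).

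MDM2, the ubiquitin ligase that degrades p53 and is induced by it, was at 42.5 FPKM in siCTCF and 17.3 in the control (1.25). The other siRNA libraries ran from 13.2 in siRAD21 to 28.6 in siKDM1A. Of 8 measured genes of this feedback, MDM2 was the member at least 2-fold higher and 1 was at least 2-fold lower, with 4 above and 4 below the control and a median of 0.035. MDM4 was at 0.15 and PPM1D at 0.29.

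Genes of cell division were lower as a group. Of 105 measured genes on 5 lists, 89 were lower by 2-fold or more and none higher, and the median was -2.08. Over all genes 2.85% were at least 2-fold lower and the median was 0.04. The median of the 105 was nearer to 0 (-0.87) when siCTCF was set against the other 11 siRNA libraries. By that reference 36 of them were at least 2-fold lower, against 0.83% of all genes. The control was the highest of the 13 libraries for 82 of the 105, which was so for 833 of all 15780 genes. In RNA from bulk cells, fewer dividing cells and less of these RNAs per cell cannot be told apart.

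PLK1, the kinase of mitotic entry and the CHR promoter shown above, was at 4.56 FPKM in siCTCF and 36.3 in the control (-2.75), and the other 11 siRNA libraries ran from 2.41 to 29.5 with a median of 11.7. All 12 siRNA libraries were below the control, and siCTCF was above 3 of them. The same rank, 10th from the highest of 13, held for CDC20, the activator of the anaphase-promoting complex (64.5 to 8.22 FPKM, -2.83), and for the survivin gene BIRC5 (31.1 to 3.58, -2.81). The libraries below siCTCF were those of siFOXA1, siFOXM1 and siEZH2 for the medians of all 5 lists.

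Mitotic kinases and anaphase-promoting complex genes had a median of -2.25, with 18 of 20 lower. All 25 measured genes of mitotic kinesins, spindle and cytokinesis were lower, with a median of -2.27. These included NUSAP1, a spindle protein (61.2 to 7.42 FPKM, -2.88), CDCA3, a trigger of mitotic entry (35.3 to 4.06, -2.84), the cleavage furrow scaffold ANLN (27.5 to 3.14, -2.78) and the microtubule regulator TACC3 (64.2 to 8.68, -2.75). Of 31 kinetochore and checkpoint genes 26 were lower, with the outer kinetochore genes NUF2 at -2.78 and NDC80 at -2.66, and of 11 condensin and topoisomerase genes 9 were lower, with TOP2A at -2.63.

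Of 18 measured cyclins, their kinases and regulators, 11 were at least 2-fold lower and none higher, with a median of -1.50, and 16 were below the control. The mitotic cyclin genes CCNA2 (24.4 to 3.28 FPKM, -2.57), CCNB2 (33.5 to 5.39, -2.43) and CCNB1 (73.3 to 15.9, -2.14), and PKMYT1, the inhibitory kinase of CDK1 (14.8 to 1.56, -2.62), were at least 2-fold lower. The G1 genes CCND1 (47.6 to 75.7 FPKM, 0.66) and CDK4 (53.1 to 62.5, 0.23) were the 2 above the control. The other G1 and G1/S genes were below it, with CCNE2 at -1.57, CDK2 at -1.64, CCND3 at -0.48 and CCNE1 at -0.12.

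Replication genes were lower too. Of 51 measured genes on 2 lists, 39 passed the limit downwards, against 2.85% of all genes, and none upwards. The median was -1.42, and none was above the control. Against the other 11 siRNA libraries the median was -0.41 and 1 gene was 2-fold lower, against 0.83% of all genes. The helicase genes CDC45 (13.8 to 1.82 FPKM, -2.39), GINS2 (19.8 to 3.0, -2.38), MCM5 (31.7 to 5.78, -2.27) and MCM4 (34.8 to 6.82, -2.19) led origin licensing and firing. RRM2, the ribonucleotide reductase subunit of S phase, led the synthesis genes (41.1 to 5.91 FPKM, -2.61), followed by thymidine kinase TK1 (63.0 to 13, -2.19). MCM2 (38.6 to 12.7 FPKM, -1.53) and GINS1 (16.2 to 5.2, -1.47) are the E2F promoters shown above. GMNN, the licensing inhibitor, was at -0.39.

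The regulators of these genes were mixed. Of 20 E2F, DREAM and MuvB genes 8 were lower, against 2.85% of all genes. The median of the 20, -0.54, was the lowest of the 12 siRNA libraries. The margin was narrow, with siFOXM1 at -0.50. Against the median of the other 11 the list median was -0.20 and no member was 2-fold lower. Over the members with a mean of at least 5 FPKM it was -0.16 from the control. MYBL2, the activator partner of MuvB, was at 2.88 FPKM against 25.9 (-2.79), E2F8 at -1.96, FOXM1 at -1.86, E2F1 at -1.81 and LIN9 at -1.63. RB1 (12.5 to 5.10 FPKM, -1.15) and RBL1 (-1.04) were also lower. The repressor subunits RBL2 (0.15) and E2F4 (-0.03), LIN37 (0.21) and E2F5 (0.73) were not. Of 37 homologous recombination and Fanconi anemia genes 18 were lower, against 2.85% of all genes, with a median of -0.88. Among the 18 were RAD51AP1 (-2.42), EXO1 (-2.19) and FANCI (-2.18). BRCA1 (11.1 to 2.38 FPKM, -1.84), BRCA2 (3.25 to 0.527, -1.48) and EZH2 (16.4 to 7.51, -1.03), targets of other siRNAs in the series, were at least 2-fold lower. All 12 siRNA libraries were below the control for each of them. Against the median of the other 11, siCTCF was at -0.36 for BRCA1, -0.35 for BRCA2 and -0.305 for EZH2. FOXA1, EED, KDM1A, SMARCA4 and MALAT1 were within 0.4 of the control.

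**Figure D3:**
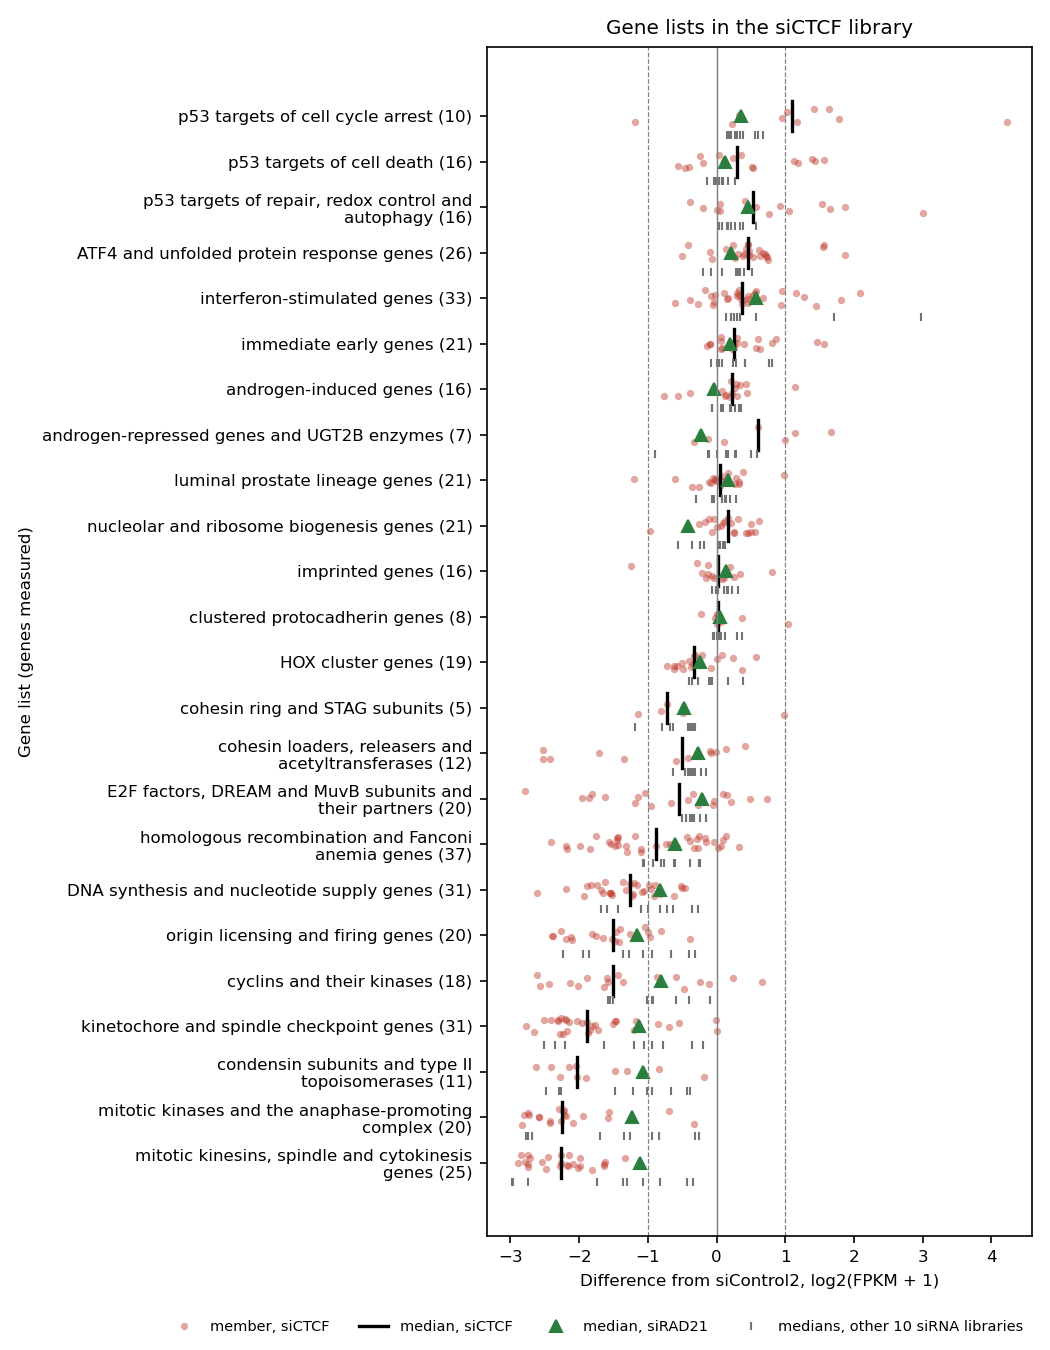
Differences from siControl2 on the log2(FPKM + 1) scale for 24 gene lists, with the number of genes measured: members in siCTCF (red points), their median (black bar), the siRAD21 median (green triangle) and the medians of the other 10 siRNA libraries (grey ticks). The cell division and replication medians in siCTCF lie between -2.27 and -1.26, below siRAD21 in each, and the median of p53 arrest genes is at 1.10.

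The promoters of the lower genes were searched for the motifs shown above, over RefSeq windows of 300 bases from 250 before to 50 after the start. A window was matched for 11067 of the 15780 genes (70.1%), for 75.5% of the lower genes and for 55.2% of the higher genes. As under 80% of those sets had a window, the search is void as a check on the whole sets and describes only the genes that matched. Of the 85 cell division genes with a window (81.0% of their lists), 55 (64.7%) held a CHR, against 11.3% of all matched genes. Of the 44 replication genes (86.3% of their lists), 3 (6.82%) held a CHR and 14 (31.8%) an E2F site, which 3.05% of all matched genes held and 7.06% of the cell division genes. CCAAT boxes were held by 63.5% and 56.8% of the 2 groups, against 37.1% of all.

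Among the 339 matched genes that were at least 2-fold lower, 31.9% held a CHR and 11.2% an E2F site. Of the 211 of these that were on none of the division, replication, recombination or E2F lists, 26.5% held a CHR. The lists of cohesin regulators and CDK inhibitors were not left out, and the lists are not complete. The 211 may therefore still hold genes of cell division. The core of the CTCF motif, with its variable positions unset, was found in 2.65% of the lower and 1.80% of the higher matched genes, against 2.95% of all. These are matches of letters in proximal windows and no measure of binding.

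**Figure D4:**
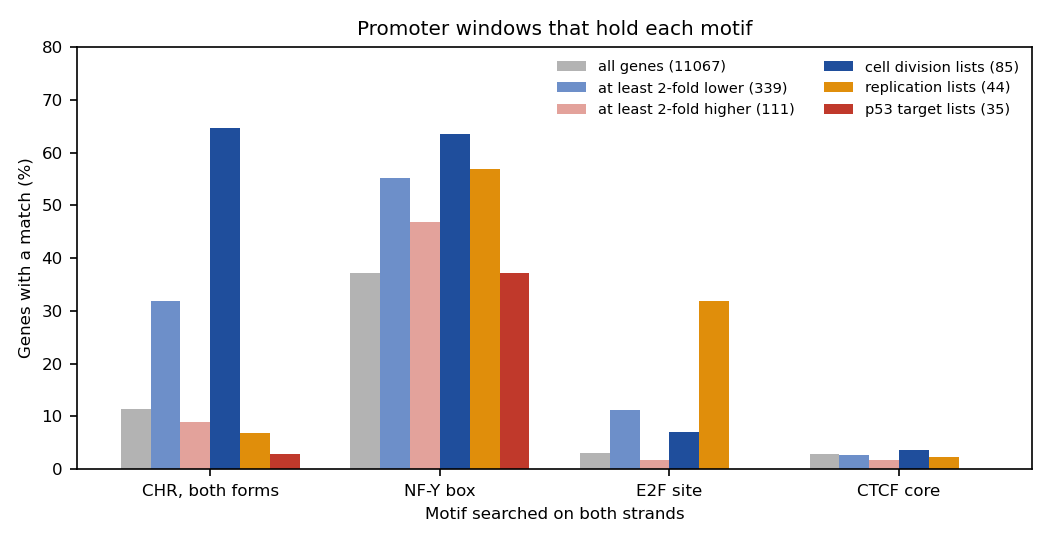
Percent of genes whose 300-base promoter window holds each motif on either strand, for all matched genes and 5 sets, with the number of genes in each set; the NF-Y box is CCAAT. The CHR bar is highest for the cell division lists at 64.7%, the E2F bar for the replication lists at 31.8%, and the CTCF core lies below 4% in every set.

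A gene was called set apart where siCTCF differed from each of the other 12 libraries by 1 log2 unit or more in 1 direction. There were 28, of which 16 were higher (0.101% of genes) and 12 lower (0.076%). Counts for the other libraries ran from 0 in the control to 116 in siFOXA1, and siRAD21 had 15. Since the rule asks siCTCF to lie beyond siRAD21 as well, the siRAD21 differences are given only as values. They lay between -0.46 and 0.36 for the 12 lower genes and reached 1.93 for CDKN1A and at most 0.68 for the other 15 higher genes.

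Among the higher genes with a coding product, CLUL1, a clusterin-like gene, was at 16.1 FPKM in siCTCF and 1.97 in the control (2.53), and the other siRNA libraries ran from 1.25 to 2.99. ZNF185, a LIM domain protein of the actin cytoskeleton, was at 5.10 against 0.529 (2.00), with the others between 0.191 and 0.558. FDXACB1 was at 8.97 against 1.51 (1.99), the nucleotide hydrolase family member NUDT8 at 40.4 against 10.7 (1.83), and the synaptonemal complex gene SYCE3 at 13.5 against 3.31 (1.75). RABGGTA, the alpha subunit of the enzyme that attaches lipids to Rab proteins, was at 40.4 against 12.6 (1.61), with no other library above 18.6. FCGBP, a mucus protein gene, was at 2.75 against 0.270 FPKM (1.56). CDKN1A and PLK3, described above, complete this group with FRMPD2 (5.88 against 0.767 FPKM, 1.96). FRMPD2 has a near-identical copy, FRMPD2P1 (1.48), whose reads the counting could not separate with certainty.

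The remaining higher entries were noncoding or unnamed. PXN-AS1, antisense to the paxillin gene PXN, was at 13.1 FPKM against 1.42 (2.54), while PXN itself was at 20.9 against 21.4 (-0.03). LOC643037, WEE2-AS1, an entry with only an Ensembl identifier and an assembled transcript with no name made up the rest. The sources used here do not say whether strand was used in counting, so antisense entries may hold reads of the gene opposite.

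The lower set held some of the most abundant RNAs of the cell. RPL9, a protein of the large ribosomal subunit, was at 241.0 FPKM in siCTCF against 1205.6 in the control (-2.32), and the other 11 siRNA libraries ran from 760.3 to 1452.6 with a median of 1266.2. Of 80 ribosomal protein genes and paralogues measured, RPL9 was the one at least 2-fold lower. The 77 that did not reach 2-fold lay between -0.77 and 0.78, and the others were RPS27L and RPL21, which was listed near 0 in the control. RPL9 has processed copies in the genome, so part of its value may be shared between copies.

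B2M, the light chain of major histocompatibility class I, was at 89.1 FPKM against 304.6 (-1.76), with the other siRNA libraries from 226.7 to 1057.1. H1FX, a linker histone variant, was at 19.3 against 72.7 (-1.86). ACTL6A, the actin-like subunit of SWI/SNF and other chromatin complexes, was at 9.41 against 33.8 (-1.74), and the other 18 SWI/SNF genes measured lay between -0.84 and 0.25. The phospholipase gene DDHD2 (12.6 to 3.06 FPKM, -1.75), the translin gene TSN (23.6 to 7.20, -1.59), the calumenin gene CALU (20.2 to 6.84, -1.43), GINM1 (-1.37), C19orf60 (-1.51), FGFBP3 (-1.23) and LOC401397 (-1.95) were the others beside CTCF.

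**Figure D5:**
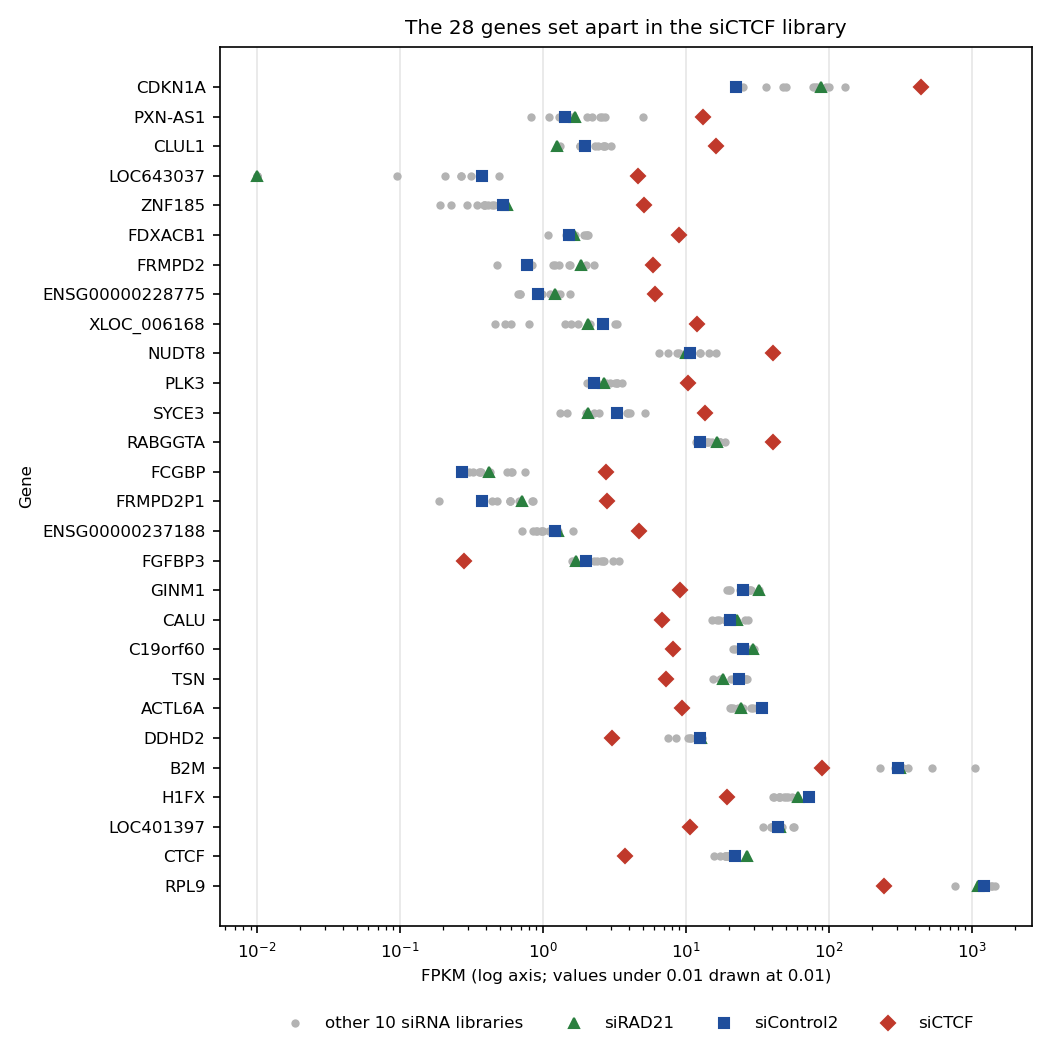
FPKM on a log axis of the 28 genes set apart in siCTCF, ordered by difference from the control, with 1 symbol per library: siCTCF (diamonds), siControl2 (squares), siRAD21 (triangles) and the other 10 siRNA libraries (grey circles). The siCTCF symbols of the upper 16 genes lie to the right of all others and those of the lower 12 to the left, by the rule that chose them.

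Since CTCF insulates neighbouring genes, the next gene on each side of the set-apart genes was looked at, among measured genes placed in the order of RefSeq. For PXN-AS1 these were RPLP0 and SIRT4. PXN, though measured, was not taken, so a neighbour need not be the nearest measured gene. For 23 of the 28 a place was found, which gave 46 neighbours. Of these, 39 (84.8%) lay within 0.5 of the control, as did 83.2% of the 13843 genes with a place. At least 2-fold higher were 3 of the 46 (6.52%), against 1.02% of the genes with a place, and none was lower, against 3.01%. These are counts of a few genes, with no test. The 3 were ALDH3B2 beside NUDT8 (12.9 to 28.7 FPKM, 1.10), TCTEX1D4 beside PLK3 (0.826 to 2.76, 1.04) and TGM1 beside RABGGTA (0.927 to 3.54, 1.23). On its other side, RABGGTA had NOP9 at 0.27, and CDKN1A lay between SRSF3 (-0.36) and PPIL1 (0.01).

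Of the gene classes known for CTCF control, protocadherins and imprinted genes had 1 member each past 2-fold and HOX genes none, against 4.12% of all genes, so no share apart from the background can be read from them. Of 53 clustered protocadherin genes listed, 34 had an entry and 8 reached the level filter, and 1 of the 8 was at least 2-fold higher. This was PCDHGC3, a constant-type isoform of the gamma cluster (3.03 to 7.30 FPKM, 1.04), which was highest in siCTCF, with siRAD21 next at 5.29. The other 7 lay between -0.23 and 0.37, and isoforms of a cluster share their last exons. Of 16 measured imprinted genes, MEST, a hydrolase gene expressed from the paternal allele, was past 2-fold (24.0 to 9.53 FPKM, -1.25). It was lowest in siCTCF, and the other 11 siRNA libraries ran from 12.5 to 28.4. SNURF, which shares its transcript with SNRPN, was at 0.80, and SNRPN at 0.13.

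None of 19 measured HOX genes was past 2-fold. They ran from -0.71 for HOXC8 (1.27 to 0.384 FPKM) to 0.57 for HOXA10 (19.3 to 29.1), with a median of -0.33, and 14 were below the control. HOXB13, the prostate lineage factor, was at 114.1 FPKM against 121.2.

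Other increases among the largest in the library were of several kinds. AGR2, an endoplasmic reticulum disulphide isomerase, was at 15.6 FPKM against 2.66 (2.18), and the other siRNA libraries ran from 1.30 to 8.96. TNFSF15, a cytokine of the tumour necrosis factor family, was at 11.2 against 1.86 (2.10), with the others between 1.72 and 5.70. Both were highest in siCTCF. HYPK, a huntingtin-binding chaperone gene with overlapping neighbours, was at 23.5 against 5.2 (1.98), and siEED reached 19.4. VTRNA1-3, a vault RNA shorter than most fragments, was at 125.8 against 28 (2.13), and was listed at 0 in siKDM1A and siPCAT1. The antisense entry ZSWIM8-AS1 (2.82) and the read-through entry RPS10-NUDT3 (2.18) were near 0 in the control and in several other libraries, so their differences rest on unstable entries. CDIPTOSP was at 4.27 FPKM against 0.222 (2.11), with the other siRNA libraries from 0.00454 in siEZH2 to 2.30.

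Several increases from the control were shared by the other siRNA libraries. Of 33 interferon-stimulated genes 5 were at least 2-fold higher, against 1.27% of all genes. The 5 were led by IFI6 (5.65 to 27.4 FPKM, 2.09), OASL (0.831 to 5.41, 1.81) and IFIT1 (2.10 to 7.49, 1.45). All 12 siRNA libraries were above the control for these 3 genes, and against the median of the other 11 siCTCF was at -0.47 for IFI6, 0.05 for OASL and -0.10 for IFIT1. The stress factor gene ATF3 (8.76 to 27.8 FPKM, 1.56) was likewise at -0.44 against the other siRNA libraries, and CYR61 (1.46) at 0.05. Among ATF4 and unfolded protein response genes, 3 of 26 were at least 2-fold higher, against 1.27% of all genes, with a median of 0.46. CHAC1, a glutathione-degrading enzyme, was at 8.30 FPKM against 2.19 (1.54).

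Of 16 measured androgen-induced genes, with a median of 0.22, 1 was at least 2-fold higher, the transporter gene SLC45A3 (6.44 to 15.5 FPKM, 1.15), and siEZH2 had 20.7. Of 7 measured androgen-repressed genes and UGT2B enzymes 3 were at least 2-fold higher and none lower, against 1.27% and 2.85% of all genes. Their median of 0.61 was the highest of the 12 siRNA libraries, of which the others ran from -0.89 to 0.58, but it was 0.10 over the members with a mean of at least 5 FPKM and 0.18 with no filter on level. The glucuronidation genes UGT2B11 (2.33 to 9.56, 1.66) and UGT2B28 (1.80 to 5.14, 1.13), which androgen lowers, were highest in siCTCF. UGT2B genes are close paralogues, so reads may be split between them. The third androgen-repressed gene past 2-fold, CAMK2N1 (1.0), was at -0.17 against the other siRNA libraries. Of 21 luminal genes, KRT19 was at least 2-fold lower (2.71 to 0.604 FPKM, -1.21), and the median was 0.05. KRT19 was below the control in 9 of the 12 siRNA libraries and ran from 0.125 FPKM in siBRCA1 to 17.2 in siFOXM1. Against the median of the other 11, siCTCF was at -0.20 for it.

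Histone and chromatin genes were mixed. The variant histones H2AFX (95 to 22.9 FPKM, -2.01) and H2AFZ (622.0 to 173.9, -1.83) were lower with H1FX, and HIST1H1E was at 1.04 but at 0.003 against the other siRNA libraries. The Polycomb-associated gene PHF19 (5.62 to 1.70, -1.29) and the DNA methylation cofactor UHRF1 (11.4 to 2.34, -1.89) were lower. For H2AFX, H2AFZ, PHF19 and UHRF1 all 12 siRNA libraries were below the control. Against the median of the other 11, siCTCF was at -0.50, -0.55, -0.51 and -0.18 for these genes in turn. Genes of the nucleolus had a median of 0.17, the highest of the 12 siRNA libraries, with siKDM1A next at 0.12. Of the 21, 14 were above the control, against 8745 of all 15780 genes, and none was past 2-fold. The siCTCF library was the highest of the 13 for 6 of the 21, and for 8.62% of all genes.

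CTCF and RAD21 act at the same chromatin sites, so the siRAD21 library is given beside siCTCF. Both are set against the same control library, so likeness between them is not read as a result. In siRAD21, 143 genes (0.906%) were at least 2-fold higher and 297 (1.88%) lower. RAD21 was at 6.97 FPKM there against 88.5 in the control (-3.49). The 105 cell division genes had a median of -1.11 in siRAD21 and -2.08 in siCTCF, with 63 and 89 at least 2-fold lower, and the replication genes had medians of -0.99 and -1.42. The 42 p53 targets had medians of 0.34 and 0.52, with 3 and 16 at least 2-fold higher. CDKN1A was at 88.4 FPKM in siRAD21 and 440.0 in siCTCF. MDM2 was at 13.2 FPKM in siRAD21, the lowest of the 13, and at 42.5 in siCTCF, the highest. COL5A2, a fibrillar collagen gene, was at 51.9 FPKM in siRAD21 and 28 in siCTCF against 12.6 in the control, but 8 of the 12 siRNA libraries were above the control, with siEZH2 at 49.4.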

How the data were processed

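RNA was sequenced from LNCaP-abl cells 72 h after siRNA transfection, with 1 library for the control and for each of 12 targets. TopHat alignment and Cufflinks quantification on hg19 are named, without versions, per the submitters' processing notes. The gene annotation, any use of strand and any later normalization are not given in these sources. For each library, the authors deposited log2 values of FPKM for 22613 entries. Their floor was the log2 of 0.1, so they were read as log2(FPKM + 0.1), which no label states. The sorted values of the 13 libraries differed by at most 0.0562 on the log2 scale, so they had been brought to a common distribution before deposit. The depth is unknown, as no counts were used, and no interval is given.

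Values were turned back to FPKM, with values under 1e-09 set to 0 (1528 to 1821 entries in each library), and compared as log2(FPKM + 1) in Python 3.11.15 with numpy 2.4.6 and pandas 2.3.3, drawn with matplotlib 3.10.9. The 759 entries with small RNA symbols were left out. Entries with a mean of at least 0.5 FPKM were kept, of which 535 carried an assembly identifier alone and 1933 an Ensembl one, with a symbol in the name table for 1013. The gene PCAT1 was not analysed here. RefSeq tables of GRCh38.p14 gave gene order and promoters only. The code was tested on simulated data.

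The members and the 40 gene lists were chosen with earlier results of these data known. Genes named are the siRNA targets, the 15 largest increases and 15 largest decreases with a symbol that also lay 1 or more beyond the other siRNA libraries' median in the same direction, all set-apart genes, up to 4 members of each list at least 2-fold higher and 4 lower (where none, the extremes), and all measured cohesin genes, CTCF partners and CDK inhibitors. Other genes named, such as further list members, PXN and RPS27L, were chosen after their values were seen. Some genes that this rule names are not reported here. The alternatives were another pseudocount, other filters, quantile normalization, centring, the other siRNA libraries as reference, small RNA kept, other folds and other promoter windows.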

Additional observations from a re-analysis of the deposited data

How the results depend on the processing

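Values were recomputed under each alternative. A list median or gene was taken to have moved where it shifted by more than the SD of the same quantity over the other 11 siRNA libraries, and a count where it shifted by more than 1.5 times. Of list medians, 249 stayed, 26 moved and 4 turned. Of named gene values, 1025 stayed, 130 moved and 4 turned. No paired analysis was possible because each group had 1 library, and no replicate could be left out for the same reason. The cause of each shift was not tested beyond the changed set of genes or reference.

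Against the median of the other 11 siRNA libraries, 89 genes were higher and 131 lower, CTCF was at -2.10, and the medians were -0.25 for cohesin, -0.18 for its regulators, -0.097 for CDK inhibitors, 0.71 for p53 arrest, 0.205 for p53 repair, -0.46 for cyclins, -0.99 for mitotic kinases, -0.78 for kinetochore, -1.035 for kinesins, -0.88 for condensin, -0.48 for origin, -0.41 for DNA synthesis, -0.20 for E2F, -0.26 for recombination, 0.24 for ATF4, 0.069 for BCL2 family and 0.135 for cholesterol genes. Medians that turned were kallikreins (-0.11), interferon (-0.078), basal (-0.036) and NF-kB genes (-0.075), and genes that turned were ATF3 (-0.44), CAMK2N1 (-0.17), IFI6 (-0.47) and IFIT1 (-0.10).

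With a pseudocount of 0.1, 487 genes were higher, 769 lower and 60 set apart, CTCF was at -2.54, and the neuroendocrine and leukocyte medians were -0.35 and 0.32. With a mean of at least 5 FPKM, 81 were higher, 269 lower and 14 set apart, and the medians were -0.096 for cohesin regulators, -0.16 for E2F, -0.38 for recombination, 0.10 for androgen-repressed, -0.525 for neuroendocrine and 0.78 for leukocyte genes; lists left with no gene gave no value. Without a filter the androgen-repressed median was 0.18. With small RNAs kept, 318 genes were higher. At 1.5-fold 908 were higher and 1163 lower, and at 3-fold 47 and 184. In the 150-base promoter window the lower genes held a CHR in 26.3%, CCAAT in 44.2% and the CTCF core in 0.885%. With any listed promoter, an alternative chosen after seeing the data like the removal of 11 unstable entries, CCAAT was in 60.5%. Without siMALAT1 and siPCAT1 among the other siRNA libraries, also chosen after seeing the data, 97 genes were higher and 144 lower than their median, 17 and 13 were set apart, and the medians were -0.88 for division, -0.41 for replication and 0.36 for p53 targets. Depth is unknown, so low entries carry unknown counting error.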

Other observations

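The genes in this section were chosen after their values were seen. Among genes of iron handling, FTH1, the ferritin heavy chain, was at 464.8 FPKM against 1254.3 in the control (-1.43), and the other 11 siRNA libraries ran from 825.0 to 1918.0. TFRC, the transferrin receptor, was at 41.9 against 98.9 (-1.22), with the others from 56.1 to 129.9. Both were lowest in siCTCF. The ferritin light chain FTL was at 241.9 against 232.7 (0.06), and the ferrireductase gene STEAP3, at 2.95 against 0.925 (1.04), was highest in siCTCF. The iron exporter gene SLC40A1 was at 4.73 against 3.79 (0.26), inside the range of the others. FTH1 has many processed copies, so reads may be split between them.

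Other abundant RNAs that were lowest in siCTCF included CALM2, a calmodulin gene (240.0 to 75.2 FPKM, -1.66), the centrin gene CETN3 (33.8 to 12.3, -1.39), the desaturase gene FADS1 (48.9 to 17.4, -1.44) and the sterol acyltransferase gene SOAT1 (28.1 to 11.2, -1.26). Against the median of the other 11 siRNA libraries, CALM2 was at -1.575, CETN3 at -1.16, SOAT1 at -1.15 and FADS1 at -0.66. For FADS1 the control was above the other 11, which ran from 19.6 to 41.3 FPKM. TONSL, a histone reader of replicated chromatin, was at 3.83 FPKM against 19.5 (-2.08), with the others from 5.05 to 16.0. CD274, which encodes PD-L1, was at 2.44 against 0.423 FPKM (1.27) and was highest in siCTCF. The other 11 siRNA libraries ran from 0.432 to 2.12 FPKM, all above the control, and siCTCF was at 0.84 against their median. The ectonucleotidase gene NT5E was at 5.37 against 2.14 (1.02), and at 0.67 against the median of the other 11. The trefoil factor gene TFF1 was at 29.3 against 6.88 (1.94), while 1 other siRNA library reached 29.6.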
